A study of Mus musculus with 10 samples.

Results

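Cystatins of the mouse testis were examined as a gene family, Cst3, Cst6, Cst7, Cst8, Cst9, Cst11, Cst12, Cst13 and Cstb. A member was any array feature annotated with 1 gene symbol equal to one of these 9 names, and 8 of the 9 were found, among 19661 genes in all. Where a gene had several features, one was to be selected on its mean level over all 10 arrays, but each of the 8 had a single feature and this choice decided nothing. Cst8 was not analysed here. Testes of 5 wild-type (WT) and 5 Crem-/- (KO) mice were each measured whole on an Affymetrix Mouse Gene 1.0 ST array of their own. CREM, the product of Crem, is a cAMP-responsive transcription factor of spermatids, the haploid germ cells. Both genotypes had the mixed background 129Pas x C57Bl/J, were 8 weeks old and untreated, and were killed at 0 h, when the lights came on. The mutation was present in every cell of the KO mice, which lack late spermatids, so a change in RNA per cell and a change in the share of cells cannot be told apart in these arrays.

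Cystatins are reversible inhibitors of papain-like cysteine proteases, the cathepsins among them. Most of the genes examined encode secreted cystatins, whereas cystatin B (Cstb) acts inside cells. Several secreted cystatins lie side by side in one cluster and are made in the male reproductive tract, some of them in germ cells and others in the Sertoli cells that surround and feed the germ cells.

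Expression levels are given on the log2 scale, on which 1 unit is a factor of 2, and a change is KO minus WT with its standard error (SE). A gene was called at an adjusted p under 0.05 with limma, a linear model fitted over all features. Crem itself fell from 10.95 ± 0.06 in WT to 9.24 ± 0.15 in KO (SD, n = 5 each), a change of -1.71 ± 0.07 (adjusted p = 3.0e-10), and the groups did not overlap. Its feature averages probes over the whole gene, so the signal left cannot be assigned to a transcript. The array medians ran from 7.11 to 7.15, and arrays correlated at r of 0.992 to 0.995 within a genotype and 0.936 to 0.952 between genotypes. Batch 2 of the labels held WT replicates 1 to 3 and KO replicate 3, batch 4 held WT replicate 5 and KO replicates 1, 4 and 5, and the other two batches held a single array each.

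Of the 8 cystatins 1 was lower in KO, 3 were higher and 4 were not called. Cst13 fell by 5.89 on the log2 scale, whereas Cst9, Cst12 and Cstb rose by 0.37 to 0.52. Among all genes tested 44.3% were called, 13.2% lower and 31.1% higher. The median change of the 8 cystatins was 0.16, and that of all genes was 0.07. The groups did not overlap for Cst13, Cst9 and Cstb, 3 of the 8, against 32.7% of all genes. With a change of at least 1 required as well, Cst13 was the 1 cystatin called, against 4.36% of all genes lower and 1.37% higher. Cst13 had been set against Cst9 and Cst12 with the direction of these changes already known, so the contrast between them is a description and was not tested.

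**Figure D1:**
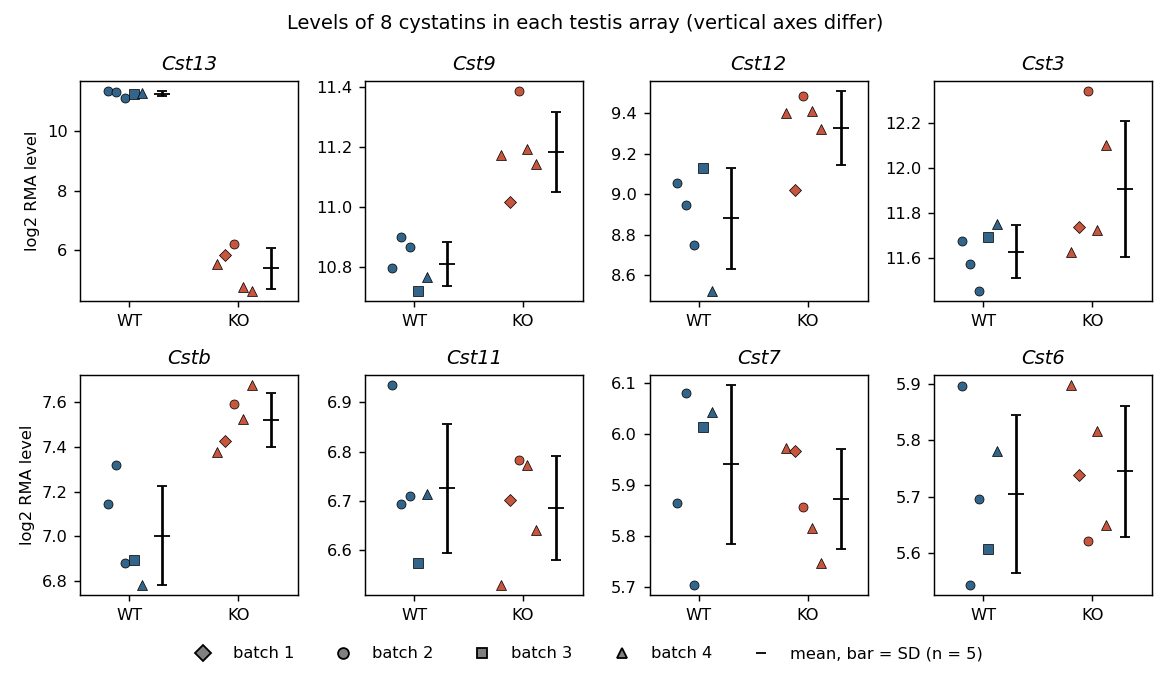
Log2 expression level of each of the 8 cystatins in the 5 WT and 5 KO arrays (1 point per array, symbols by batch, bars at the mean and SD). Cst13 drops from about 11.27 to 5.38, Cst9 and Cstb move up without overlap of the groups, and Cst6, Cst7 and Cst11 keep overlapping groups.

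Cst13 encodes cystatin T, a secreted cystatin of the testis. Its level in WT replicates 1 to 5 was 11.35, 11.31, 11.13, 11.28 and 11.31. In KO replicates 1 to 5 it was 5.52, 5.81, 6.21, 4.75 and 4.60. The WT arrays lay close together, and each KO array was far below every WT array. The mean went from 11.27 ± 0.09 to 5.38 ± 0.69 (SD, n = 5 each), a change of -5.89 ± 0.25 (adjusted p = 2.3e-10) or a 59.5-fold lower signal. This was the 4th lowest change of the 19661 genes.

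The KO arrays differed among themselves more than the WT arrays did. Relative to the WT mean, KO replicates 1 to 5 retained 1.85%, 2.27%, 2.98%, 1.09% and 0.982% of the Cst13 signal. KO replicates 2 and 3, in batches 1 and 2, kept the most signal, and KO replicates 4 and 5, both in batch 4, kept the least. Without KO replicates 2 and 3 the change was -6.32 (adjusted p = 7.5e-11). Within batch 2 it was -5.05 (adjusted p = 3.2e-06) and within batch 4 it was -6.35 (adjusted p = 1.8e-05), and with batch as a block in the model it was -5.70. Levels this low on an array include background signal, which limits how well the size of this fall and its rank are known.

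The genes around Cst13 were compared next. Along chromosome 2 the order in the mouse RefSeq table (assembly GRCm38.p6) is Cstl1, Cst11, Cstdc1, Cst12, Cst8, Cst13, Cst9, Cstdc2 and Cst3. Cstl1 at one end of this row and Cst13 inside it were lower in KO. Cstdc1, Cst12 and Cst9 were higher, and Cst11, Cstdc2 and Cst3 were not called. Cst9 follows Cst13 directly in this order, and their changes were +0.37 and -5.89. Cst7 and Cst10 lie further along the same chromosome, Cstb lies on chromosome 10 and Cst6 on chromosome 19.

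**Figure D2:**
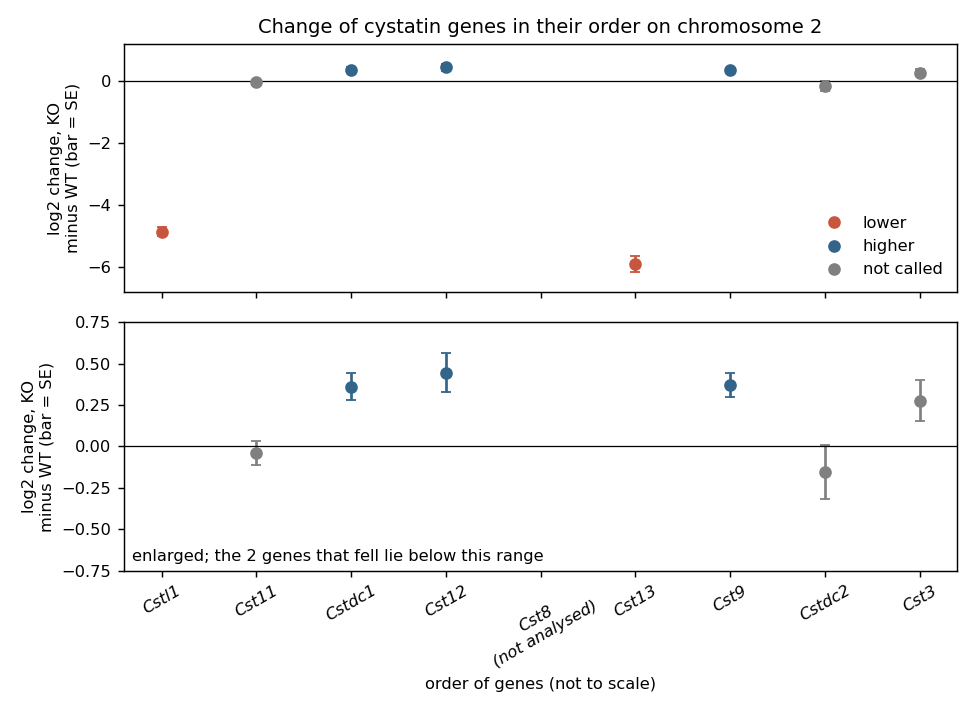
Log2 change, KO minus WT, of the cystatin genes in their order on chromosome 2 (x axis not to scale; points are limma estimates and bars their SE; the lower panel enlarges the range around 0). Cst13 at -5.89 and Cstl1 at -4.86 stand among genes whose changes lie between -0.16 and 0.45.

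Cystatin-like 1 (Cstl1) is a relative of Cst13 in the same row. Its level was 10.85, 10.66, 10.62, 11.03 and 10.93 in WT replicates 1 to 5. It was 5.78, 6.35, 6.31, 5.76 and 5.57 in KO replicates 1 to 5. As for Cst13, KO replicates 2 and 3 were the highest of the KO arrays and no KO array came near a WT array. The change was -4.86 ± 0.15 (adjusted p = 1.1e-11), the 72nd lowest of all genes. Between 2.63% and 4.53% of the mean Cstl1 signal of WT was retained.

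The starts of these genes are shown to let the neighbours that fell be compared with one that rose. The sequences are the 250 bases before the annotated start from RefSeq (GRCm38.p6, plus strand, 5′ to 3′), at chr2:148819849-148820098 for Cst13, chr2:148750111-148750360 for Cstl1 and chr2:148789115-148789364 for Cst12. Capitals mark a run of letters that Cst13 shares with Cstl1, and in Cst12 a run shared with Cstdc1.
Cst13: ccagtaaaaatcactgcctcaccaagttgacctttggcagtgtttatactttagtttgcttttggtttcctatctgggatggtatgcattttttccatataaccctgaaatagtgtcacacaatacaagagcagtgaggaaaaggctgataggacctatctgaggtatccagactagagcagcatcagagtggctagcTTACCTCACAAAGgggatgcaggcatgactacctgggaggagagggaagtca
Cstl1: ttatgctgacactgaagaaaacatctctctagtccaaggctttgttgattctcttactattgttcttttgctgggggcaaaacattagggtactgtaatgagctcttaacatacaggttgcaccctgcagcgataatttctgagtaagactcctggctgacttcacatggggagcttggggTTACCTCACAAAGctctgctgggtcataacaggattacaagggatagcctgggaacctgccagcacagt
Cst12: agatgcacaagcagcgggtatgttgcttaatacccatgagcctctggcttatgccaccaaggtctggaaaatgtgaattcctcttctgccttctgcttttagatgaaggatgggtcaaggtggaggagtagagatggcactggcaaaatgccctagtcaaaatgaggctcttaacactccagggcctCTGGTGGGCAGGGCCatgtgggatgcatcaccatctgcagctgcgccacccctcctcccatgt

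Cyclic AMP response factors such as CREM bind the palindrome TGACGTCA or its shorter form TGACG. Windows of 250 bases before to 50 bases after the start were found for 10 of 13 cystatin genes looked up. None of the 10 held TGACGTCA or TGACG on either strand, whereas 1.79% and 20.8% of all 32851 windows did (the shorter letters also lie inside the palindrome). Cstl1 held TGACTTCA, 1 mismatch from the palindrome, with its first base at -93, and 12.5% of all windows held a match with at most 1 mismatch. TATAAA on either strand was found in the window of Cst13 alone among the 10, as TTTATA from -208, and in 13.6% of all windows. These letters being absent from a window does not settle whether the factor binds there or elsewhere. The paper reports genes bound by CREM whose promoters held no such element.

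The 2 longest runs shared by any 2 of the 10 windows, over 45 pairs, were found after the sequences had been seen. Cst13, from -52 to -40, and Cstl1, from -69 to -57, share the 13 bases TTACCTCACAAAG. Cst12, from -63 to -49, and Cstdc1, from -13 to 2, share the 15 bases CTGGTGGGCAGGGCC. Cst13 and Cstl1 both fell, and Cst12 and Cstdc1 both rose. The 13 bases stand in 4 windows in all (0.0122%), the others being those of Gm34475, which had no value, and Rsbn1, at -0.46 ± 0.05 (adjusted p = 1.1e-05). The 15 bases stand in 3 windows (0.00913%), the other being that of Pgrmc2, whose level was 9.33 in both genotypes (adjusted p = 0.99). The windows counted include the pairs in which the runs were found, so the shares give no background rate for a shared run. Genes of 1 family can share such letters by descent, and a part of the runs in the changes was not tested.

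Cst9, also called testatin, is a secreted cystatin known from Sertoli cells and from the early male gonad. Its level was 10.80, 10.90, 10.87, 10.72 and 10.77 in WT replicates 1 to 5. It was 11.17, 11.02, 11.39, 11.19 and 11.14 in KO replicates 1 to 5. All KO arrays were above all WT arrays, by the smallest margin in KO replicate 2. The means were 10.81 ± 0.07 and 11.18 ± 0.13 (SD, n = 5 each), a change of 0.37 ± 0.07 (adjusted p = 0.00091) or 1.29-fold. Within batch 2 it was 0.53 (adjusted p = 0.019) and within batch 4 it was 0.40 (adjusted p = 0.055), so in batch 4 the call was lost.

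Cst12 is a further secreted cystatin of the testis. Its level was 9.05, 8.95, 8.75, 9.13 and 8.52 in WT replicates 1 to 5. It was 9.40, 9.02, 9.48, 9.41 and 9.32 in KO replicates 1 to 5. KO replicate 2 lay inside the WT range and the other KO arrays lay above it. The means were 8.88 ± 0.25 and 9.33 ± 0.18 (SD, n = 5 each), a change of 0.45 ± 0.12 (adjusted p = 0.0077) or 1.36-fold. The call was lost in an exact permutation test over the 10 arrays, adjusted over all features (adjusted p = 0.062). The change was 0.57 within batch 2 (adjusted p = 0.040) and 0.86 within batch 4 (adjusted p = 0.0027), and 0.71 with batch as a block (adjusted p = 0.00044). The pooled value is thus lower than each value within a batch.

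The changes of Cst9 and Cst12 are relative to the scaling of the arrays, and their size and call depended on it. Over all 24 alternatives Cst9 ran from 0.16 to 0.53 and Cst12 from 0.24 to 0.86. Centring each array on a list of housekeeping genes shifted the median of all genes by -0.12 and left changes of 0.25 for Cst9 (adjusted p = 0.012) and 0.33 for Cst12 (adjusted p = 0.025). Of the 6 genes in that list 2 were themselves higher in KO and 1 lower (median 0.13), so the list was not free of change. Of 18 Sertoli markers 8 were higher, against 31.1% of all genes, none was lower and 10 were not called, with a median change of 0.25 and a range from -0.06 to 0.38. With the housekeeping centring 3 of the 18 were higher (median 0.13), against 2993 of all 19661 genes. Rhox8, a homeobox gene of Sertoli cells, was at 0.38 ± 0.09 and Kitl, the ligand of the Kit receptor on spermatogonia, at 0.36 ± 0.08. The mean over the Sertoli list was 8.63 to 8.82 in WT arrays and 8.77 to 9.03 in KO arrays. Centring each array on that list, an alternative chosen after seeing the data, shifted the median of all genes by -0.21. It left 0.16 ± 0.08 for Cst9 (adjusted p = 0.12) and 0.24 ± 0.09 for Cst12 (adjusted p = 0.057), neither of them called. Under the same centring Cst13 was at -6.10 (adjusted p = 7.0e-12).

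The loss of Cst13 was accompanied by losses of spermatid markers. Of these markers the paper lists Prm1, Prm2, Prm3, Tnp1, Tnp2, Tssk6 and Izumo1 as bound by CREM. It lists Spem1, Gapdhs, Catsper3, Catsper4, Akap4 and Smcp as not bound. RNA per cell and the share of cells cannot be told apart for these markers in these arrays either. The paper also measured selected genes by qPCR in pre-pubertal mice, whose germ cells it describes as about equal between genotypes. It reports all of those genes lower in KO and attributes this to CREM rather than to missing cells. Its text does not name the genes measured. All 12 elongating spermatid markers were lower, with a median change of -5.11, and Prm1, a protamine that packs sperm DNA, was at -5.52 ± 0.48, and Akap4, an anchor protein of the sperm tail, at -5.49 ± 0.43. The mean of this list was 12.7 to 12.9 in WT arrays and 7.30 to 9.37 in KO arrays. Of 12 round spermatid markers 8 were lower and 3 higher, with a median of -1.60, against 13.2% and 31.1% of all genes. Catsper3, a sperm calcium channel subunit, was at -5.44 ± 0.19 and Fhl5, a partner protein of CREM, at -4.47 ± 0.22, whereas Zpbp and Zpbp2, zona pellucida binding proteins, and Spata16, of the acrosome, were higher at 0.25, 0.33 and 0.30. With the housekeeping centring none of the round spermatid markers was higher. Of 11 spermatocyte markers 7 were higher and none lower (median 0.24), against 31.1% and 13.2% of all genes, with Spo11, which makes meiotic DNA breaks, at 0.38 ± 0.09 and Sycp3, a protein of the synaptonemal complex, at 0.36 ± 0.07. With the housekeeping centring 2 spermatocyte markers were higher (median 0.12), against 2993 of all 19661 genes. Batch as a fixed block left 4 higher, against 5167 of all genes. Within batch 4 alone the median change of these markers was 0.17. The part of these cell populations in the cystatin values was not tested.

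**Figure D3:**
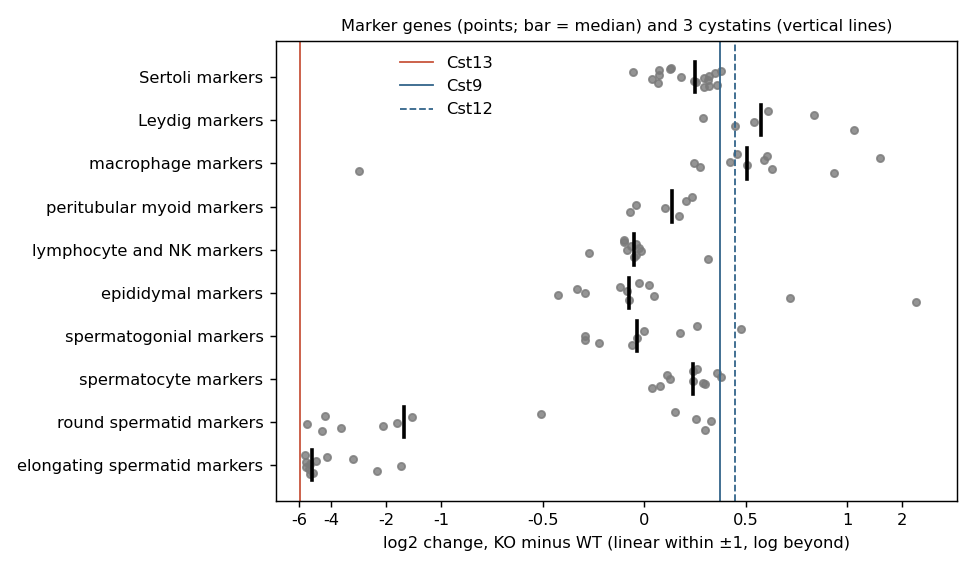
Log2 change, KO minus WT, of each marker gene (points) by cell type list, with the list median as a bar and the changes of Cst13, Cst9 and Cst12 as vertical lines; the x axis is linear within ±1 and logarithmic beyond. Cst13 at -5.89 lies below all elongating spermatid markers (median -5.11, lowest -5.52) and all round spermatid markers (median -1.60, lowest -5.44). Cst9 and Cst12 lie at and beyond the upper end of the Sertoli markers (median 0.25).

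The genes whose levels followed those of these 3 cystatins most closely over the 10 arrays are given as a description. The arrays fall into 2 genotype groups, so each r is given also after the group means were subtracted. For Cst13 they were 4921507P07Rik, Car2, Ccdc91, Dnajb7 and 1700009J07Rik, with r from 0.9990 to 0.9993, or 0.963 to 0.971 within groups. All 5 were lower in KO, with changes from -3.66 (Ccdc91) to -5.47 (Dnajb7), and 1054 genes had an r over 0.95 with Cst13. For Cst9 they were Acadsb, Vps4b, Rnh1, Stx7 and Aldh1a7, with r from 0.969 to 0.973, or 0.847 to 0.868 within groups. For Cst12 they were Actn3, Prmt1, Nup205, Dkc1 and Cpne3, with r from 0.969 to 0.978, or 0.928 to 0.969 within groups. An r over 0.95 was found for 53 genes with Cst9 and 18 genes with Cst12.

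Cstb encodes cystatin B, an inhibitor of cathepsins inside the cell that is made in most tissues. Its level was 7.15, 7.32, 6.88, 6.89 and 6.78 in WT replicates 1 to 5. It was 7.38, 7.43, 7.59, 7.53 and 7.68 in KO replicates 1 to 5. The lowest KO array lay just above the highest WT array. The means were 7.00 ± 0.22 and 7.52 ± 0.12 (SD, n = 5 each), a change of 0.52 ± 0.10 (adjusted p = 0.0010) or 1.43-fold. Within batch 2 it was 0.48 (adjusted p = 0.11) and the call was lost, and within batch 4 it was 0.75 (adjusted p = 0.015). Centred on the Sertoli markers Cstb was at 0.31 (adjusted p = 0.028) and stayed called.

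Cst3 encodes cystatin C, the secreted cystatin found in most body fluids. Its level was 11.68, 11.57, 11.45, 11.69 and 11.75 in WT replicates 1 to 5. It was 11.63, 11.74, 12.34, 11.73 and 12.10 in KO replicates 1 to 5. KO replicates 3 and 5 were above all WT arrays, and the other KO arrays lay inside the WT range. The change was 0.28 ± 0.12 (adjusted p = 0.091, 95% interval 0.01 to 0.54 before adjustment), which did not pass the threshold. Within batch 2, which holds KO replicate 3, it was 0.77 (adjusted p = 0.0079), and within batch 4 it was 0.07 (adjusted p = 0.85). Without KO replicate 1 the change was 0.35 (adjusted p = 0.042).

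Cst11, Cst7 and Cst6 were not called. Cst11, a secreted cystatin of the epididymis, ranged from 6.57 to 6.94 in WT and 6.53 to 6.78 in KO, a change of -0.04 ± 0.08 (95% interval -0.20 to 0.12, adjusted p = 0.72). Of 11 epididymal markers 2 were lower and 2 higher (median -0.08), against 13.2% and 31.1% of all genes, with Ros1, a receptor tyrosine kinase, at 2.37 ± 0.15, the esterase Ces5a at 0.72 ± 0.10, and Rnase10 and Rnase9, of the ribonuclease family, at -0.42 ± 0.13 and -0.29 ± 0.10. Cst7, cystatin F of immune cells, ranged from 5.70 to 6.08 in WT and 5.75 to 5.97 in KO, a change of -0.07 ± 0.08 (95% interval -0.24 to 0.10, adjusted p = 0.54). Of 11 lymphocyte and NK markers 1 was lower and 1 higher (median -0.05), against 13.2% and 31.1% of all genes. They were Prf1 (perforin) at -0.27 ± 0.07 and Ptprc, the pan-leukocyte antigen, at 0.31 ± 0.07. Cst6, cystatin E/M of skin and other epithelia, ranged from 5.54 to 5.90 in WT and 5.62 to 5.90 in KO, a change of 0.04 ± 0.08 (95% interval -0.13 to 0.21, adjusted p = 0.74). Cst6 and Cst7, like Csta3 described next, were among the 25% of features with the lowest mean, so the arrays may not measure them well.

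Of 17 further members of the cystatin superfamily with a value, 2 were lower, 1 was higher and 14 were not called (median -0.02). Among all genes 13.2% were lower and 31.1% higher. Beside Cstl1, Csta3, a stefin from chromosome 16, was lower. Its level was 5.52 to 6.14 in WT and 4.42 to 4.69 in KO, a change of -1.20 ± 0.10 (adjusted p = 5.1e-07), with 39.1% to 47.2% of the WT mean left, values that include background signal at these low levels. With the dimmest features removed Csta3 was not tested. Cstdc1, in the row on chromosome 2, rose from 6.91 ± 0.14 to 7.27 ± 0.12 (SD, n = 5 each), a change of 0.36 ± 0.08 (adjusted p = 0.0026). Cstdc1 was not called within batch 2 (0.43, adjusted p = 0.067), within batch 4 (0.36, adjusted p = 0.16) or with the Sertoli centring (0.15, adjusted p = 0.17).

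**Figure D4:**
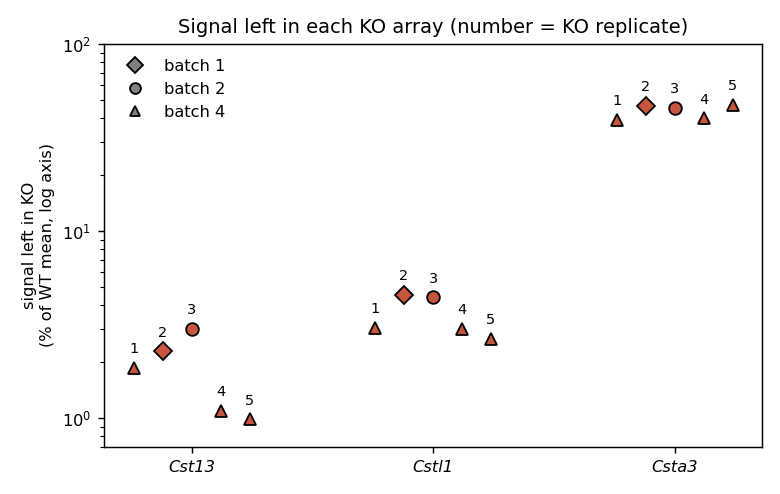
Signal left in each KO array as a percentage of the WT mean for the 3 cystatin genes that were lower in KO (log axis; numbers are KO replicates, symbols are batches). Cst13 retained 0.982% to 2.98%, Cstl1 2.63% to 4.53% and Csta3 39.1% to 47.2%.

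The proteases that cystatins can inhibit were set beside them. Of 11 genes, the cysteine cathepsins and legumain, 10 were higher in KO and none was lower, with a median change of 0.48, against 31.1% of all genes higher. Cathepsin S (Ctss), of antigen-presenting cells, was at 0.88 ± 0.12. Cathepsin C (Ctsc), which activates serine proteases of granules, was at 0.83 ± 0.17, and the lysosomal enzymes cathepsin B (Ctsb) and cathepsin H (Ctsh) were at 0.69 ± 0.11 and 0.68 ± 0.11. Cathepsins O, Z, F and K (Ctso, Ctsz, Ctsf, Ctsk) were at 0.49, 0.48, 0.48 and 0.46, and legumain (Lgmn), an asparaginyl endopeptidase, at 0.47. Ctsw, of cytotoxic lymphocytes, was at -0.15 ± 0.09 (adjusted p = 0.23), and was called lower with the Sertoli centring (-0.35, adjusted p = 0.034).

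Cathepsin L (Ctsl), which Sertoli cells make, ran from 11.16 to 11.33 in WT and 11.31 to 11.63 in KO. Its change of 0.24 ± 0.07 (adjusted p = 0.016) was no longer called with the housekeeping centring (0.12, adjusted p = 0.20) or the Sertoli centring (0.03, adjusted p = 0.77). Ctsk lost its call with the Sertoli centring (0.25, adjusted p = 0.16), with batch as a fixed block (0.37, adjusted p = 0.074) and in the exact permutation test (adjusted p = 0.062). Within batch 4 alone, which holds a single WT array, the median change of the 11 protease genes was 0.52. There Ctsl was at 0.28, Ctsk at 0.10, Ctsz at 0.43 and Lgmn at 0.48, and calls in that batch are not counted.

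Macrophages hold cathepsins and cystatins too, so their markers are given beside these genes. Of 11 macrophage markers 9 were higher and 1 lower (median 0.51), against 31.1% and 13.2% of all genes. Within batch 4 alone the median change of these markers was 0.44. The mean of the list was 7.65 to 7.79 in WT arrays and 7.81 to 8.44 in KO arrays. Adgre1, the F4/80 antigen, was at 1.52 ± 0.07, and Aif1, the marker that was lower, was at -2.80 ± 0.11. The WT level of Aif1, 11.83, was the highest of the 11 markers, and which cells gave this signal was not tested. Of 6 Leydig cell markers 5 were higher (median 0.57), against 31.1% of all genes. The steroid enzymes Hsd17b3 and Cyp11a1 were at 1.08 ± 0.14 and 0.84 ± 0.16. The part of these cells in the values of Cstb and the cathepsins was not tested.

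**Figure D5:**
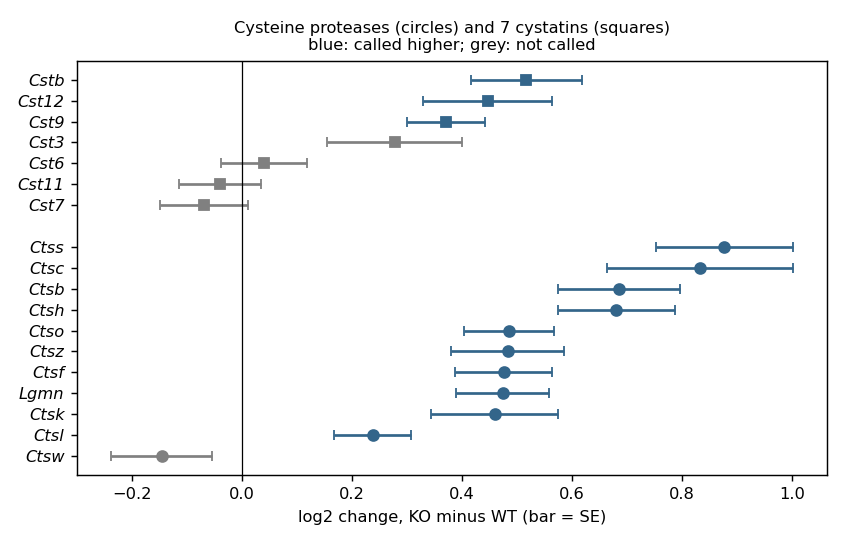
Log2 change, KO minus WT, of 11 cysteine protease genes (circles) and 7 cystatins (squares), Cst13 being left out for scale; points are limma estimates, bars their SE, blue marks genes called higher and grey those not called. The 10 protease genes called higher lie between 0.24 and 0.88, and the 3 cystatins called higher lie between 0.37 and 0.52.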

How the data were processed

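Whole testis RNA from 5 WT and 5 KO mice was measured on 10 arrays. Log2 levels were deposited, which the authors had computed by RMA with the Bioconductor package XPS (core transcripts, background from antigenomic probes, probes grouped per transcript). The package version and the genome build of the probes are not given in the sources used here. Of the features, 25689 had values and 9868 rows were empty. Symbols came from the platform annotation in GEO. Of 20777 features with 1 symbol, 20696 matched the mouse RefSeq table (GRCm38.p6), and 19661 genes resulted, each taken from the feature whose mean was highest. Cst8 is not reported here.

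KO and WT were compared with limma 3.58.1 in R 4.3.3 (lmFit and eBayes, two-sided, no covariate, Benjamini-Hochberg adjustment over all features), without a filter on low values, so all 8 cystatins were tested. The script was tested on simulated data. Precision is limited by the number of arrays, and replicates, numbered in deposition order, pair nothing. Among the adult mice for which the paper gives an RNA integrity score, every KO score was above every WT score. This difference cannot be told apart from genotype, and its part in the changes was not tested. The smallest p of an exact permutation test of 5 against 5 arrays is 0.00794, reached by Cst13, Cst9 and Cstb (0.0270 after adjustment over all features), and the exact test gave 0.0238 for Cst12 (adjusted 0.0622, not called) and 0.103 for Cst3 (adjusted 0.194). Alternatives were other scalings (array medians, housekeeping genes, Sertoli markers, quantile normalisation once more), batch as a block or single batches, array weights, a trended robust fit, removal of the 25% dimmest features, averaging a gene's features, a minimum change and leaving out arrays.

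The cystatins and the gene lists were chosen with earlier results of these data known. The genes named were Crem, all cystatins, each called relative, each gene of the list of cysteine cathepsins and legumain (placental cathepsins formed a list of their own), the 2 called members with the largest change in each other list and the 5 genes most like Cst13, Cst9 and Cst12 by Pearson r. Cstdc2, Zpbp, Zpbp2, Spata16, Rnase9, Rnase10 and the genes sharing promoter letters were named after their values were seen. Promoter sequences are those of RefSeq.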

Additional observations from a re-analysis of the deposited data

Results flagged for a closer look

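Among 44 groups of 5 arrays checked for a single array far from the rest, 2 stood out, and chance alone would give about 5% of such groups. For Ctso, KO replicate 2 was the lowest KO array at 8.12, and the nearest other KO array was at 8.37. For Ctsw, KO replicate 1 was the lowest at 5.31, and the nearest was at 5.60. None of the 8 cystatins had such an array.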

How the results depend on the processing

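No paired analysis was possible because the labels give no replicate numbers shared by WT and KO. Cst13 stayed called in all 24 alternatives, between -6.35 and -5.05, and between -6.10 and -5.70 with 1 array left out. With 1 array left out, Cst9 (0.32 to 0.41), Cst12 (0.36 to 0.52) and Cstb (0.46 to 0.60) stayed called, Cst3 ran from 0.17 to 0.35 and was called without KO replicate 1, and Cst11 (-0.0776 to 0.0126, above 0 without WT replicate 1) and Cst6 (-0.000378 to 0.0878, below 0 without WT replicate 2) were never called. Within batch 2 alone Cst3 was called at 0.77, Cstb was not at 0.48, Cst6 was at -0.0914 and Cst11 at 0.00344. Within batch 4 alone Cst9 was not called at 0.40, and 50 list genes were called in place of 94. Calls among all 19661 genes also fell in that batch, which holds a single WT array. The lower count is therefore not particular to the lists. Cst6 was at -0.0779 with the housekeeping centring and -0.0420 with batch as a fixed block, and Cst3 was called at 0.33 with array weights. With the Sertoli centring, chosen after seeing the data, Cst9 (0.16) and Cst12 (0.24) were not called, Cst7 was called lower at -0.28 and Cst6 was at -0.17, so that 2 cystatins were lower and 1 was higher. That centring turned 2599 lower and 6106 higher genes into 5611 and 1638, and the housekeeping centring into 4139 and 2993. In the exact permutation test adjusted over all features, Cst12 (0.45) was not called, while Cst13, Cst9 and Cstb were. With a change of at least 1 required, 0 cystatins were higher. The cause of these changes was not tested. With the 25% dimmest features removed, 6 of the 8 cystatins remained, and dim signal limits the values of Cst6, Cst7 and Csta3. Batches 2 and 4 hold 1 array of a genotype each, which is assumed there to vary like the other genotype. With batch as a random block, the correlation within a batch that remained after genotype was fitted was 0.0214, as limma estimated it over all features.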

Other observations

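Other protease inhibitors of the male tract were measured as a list beside the cystatins. Of 12 with a value 6 were higher in KO and none was lower, with a median change of 0.21. The counts here stand against 31.1% of all genes higher and 13.2% lower. Timp1, an inhibitor of metalloproteinases, was at 1.75 ± 0.08 (adjusted p = 1.1e-09), and Serpina3n, a serine protease inhibitor, at 1.04 ± 0.30 (adjusted p = 0.012). Cathepsins that are not cysteine proteases had 2 members higher and 1 lower of 4, with the serine carboxypeptidase cathepsin A (Ctsa) at 0.42 ± 0.10 and the aspartic protease cathepsin D (Ctsd) at 0.39 ± 0.11. Of 6 placental cathepsins, which are cysteine proteases too, 1 was called and 5 were not, Ctsr at 0.47 ± 0.09.

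The counts of the remaining marker lists stand against 31.1% of all genes higher and 13.2% lower. Of 6 endothelial markers 3 were higher and none was lower (median 0.35), with the angiopoietin receptor Tek at 2.05 ± 0.11 and the cadherin Cdh5 at 1.15 ± 0.07. Of 6 peritubular myoid markers 2 were higher (median 0.14), with the muscle proteins Myh11 at 0.21 ± 0.06 and Smtn at 0.17 ± 0.05. Of 9 spermatogonial markers 2 were higher and 2 lower (median -0.03), with the receptor Kit at 0.47 ± 0.09 and the transcription factor Sohlh2 at -0.29 ± 0.10. Of 6 housekeeping genes 2 were higher and 1 lower (median 0.13), with Hprt at 0.35 ± 0.06 and Sdha at 0.32 ± 0.06.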
